A study of Homo sapiens with 8 samples.

Results

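Nascent transcription of 47 genes that encode hnRNP proteins, SR proteins and related splicing regulators was examined among 27945 genes counted by fastGRO-seq. The genes were taken by symbol: every protein-coding HNRNP and SRSF gene, TRA2A, TRA2B, PTBP1, PTBP2, PTBP3, ELAVL1, RBFOX2, MBNL1, MBNL2 and QKI. In fastGRO-seq, engaged RNA polymerases run on in isolated nuclei in the presence of a thiol-labelled nucleotide, and the labelled RNA is purified and sequenced, so reads reflect transcription over exons and introns and not the mRNA pool. The 8 libraries came from 4 conditions of IMR90 human lung fibroblasts grown at 2% oxygen, with 2 libraries each. Control cells were labelled wild type and carried no shRNA by their labels. The other 3 conditions were senescent cells, in which a fusion of the estrogen receptor with oncogenic H-RAS had been switched on with 100 nM 4-OHT. The study's methods name day 6 as the harvest for RAS and senescence markers and state no separate day for fastGRO-seq. These senescent cells carried a control hairpin (shControl) or a single hairpin against METTL3 (shMETTL3) or METTL14 (shMETTL14), the catalytic and the RNA-binding subunit of the m6A methyltransferase complex. Senescence and shRNA infection cannot be told apart in the comparison with control cells. The study calls its fastGRO-seq experiments on senescent and proliferating cells biologically independent, and the labels do not say whether the libraries of a condition came from separate cultures. The p-values measure the spread between these libraries.

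Splicing regulators of these families bind pre-mRNA and decide which exons the spliceosome keeps. SR proteins carry serine- and arginine-rich tails, mostly bind exonic enhancers and favour exon inclusion, whereas many hnRNP proteins bind silencers and favour skipping. PTB, MBNL, RBFOX and QKI proteins act by their position relative to an exon, and many of these genes regulate their own transcripts through exons that lead to mRNA decay. Such control of splicing and decay acts after the step that fastGRO-seq measures.

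The libraries held 14897360 to 20306299 counts, of which 86.2% to 92.5% lay on 21 rows of ribosomal RNA. METTL3 had 77 and 47 counts in shControl cells and 16 and 19 in shMETTL3 cells (log2 fold change −2.04, edgeR adjusted p = 1.79e-05). METTL14 had 24 and 28 counts in shControl cells and 18 and 14 in shMETTL14 cells, a difference that missed the threshold (−0.86, adjusted p = 0.0763). It was already lower in shControl than in control cells, which had 60 and 55 counts (−0.76, adjusted p = 0.0472). In shMETTL14 cells it was lower than in shMETTL3 cells (−1.41, adjusted p = 0.00101) and than in control cells (−1.615, adjusted p = 0.000119). The study refers its knockdowns to a western blot, and the reads here do not measure the mRNA pool. Of 10 fibroblast markers, 9 had at least 10 counts in every library, and 6 of 6 epithelial markers had at most 3 counts in any library. Among immune markers CD3E had no count, PTPRC and LYZ had at most 4 in any library, and CD68, a macrophage and lysosome gene, was higher in senescent shControl than in control cells (2.05, adjusted p = 2.55e-05). Summed immune markers were at 15.05 to 15.67 normalised counts in control and 25.64 to 79.21 in senescent libraries, and their part in the results was not tested. The summed fibroblast markers moved with senescence, from 30020 to 32130 normalised counts in control libraries to 13770 to 28250 in senescent ones. Of 6 senescence genes 5 were higher and of 5 proliferation genes 3 were lower in senescent shControl than in control cells. The 2 shMETTL3 libraries differed most from each other, with a variance 8 times that of counting noise, against 1.74 to 3.64 times in the other groups. This ratio was taken with ribosomal RNA rows included, and their share differed between the 2 shMETTL3 libraries (88.4% and 86.2%). On normalised counts the SD of the log2 difference between replicates was 0.381 in shMETTL3 cells and 0.248 to 0.299 in the other groups.

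Of the 47 genes, 42 passed the filter on low counts, which left 12844 genes in the series. HNRNPCL2 had no count in any library, HNRNPCL1, HNRNPCL3 and HNRNPCL4 had 2 counts each over all 8 libraries on rows that overlap at one locus of chromosome 1, and SRSF12 had 42 counts in all. These 5 genes were not tested. The 42 genes ranged in total from 68 counts for SRSF8 to 7381 for MBNL1. Some rows share reads with other rows. HNRNPA1P10 lies wholly inside HNRNPA1 on the same strand and covers 64.6% of it. HNRNPH2 and HNRNPUL2 lie inside the read-through rows RPL36A-HNRNPH2 and HNRNPUL2-BSCL2. The file header names a strand option of the counting tool, but the counts behave as if both strands were included: 299 pairs were found of a gene nested in an antisense gene, with 100 counts or more on the nested one, and in all of them the longer gene had as many counts or more in each library. Which setting made the file was not settled. Reads of overlapping antisense genes were therefore treated as not separable, which touches 40.6% of HNRNPAB (with PHYKPL), 25.8% of SRSF9 (with GATC), 25.7% of SRSF2 (with MFSD11), 18.2% of HNRNPH3 (with RUFY2) and 12.3% of SRSF5 (with LOC100289511). The SRSF10 row is given by the authors' file as present at 2 places of the genome, so its counts are uncertain.

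Levels per length were compared as RPKM, reads per kilobase of the whole gene, scaled by the total count of the library, ribosomal RNA included, times its TMM factor (a correction for composition, trimmed mean of M values). The highest mean levels over the 8 libraries were 2.60 ± 0.55 RPKM (SD, n = 8) for HNRNPA2B1, 2.44 ± 0.61 for HNRNPH1, 2.21 ± 0.39 for SRSF5, 1.87 ± 0.39 for HNRNPU and 1.66 ± 0.22 for HNRNPK. Each of these neighbours differed from the next by less than its SD. The lowest were 0.0413 ± 0.0093 RPKM for HNRNPA1L2, 0.0765 ± 0.030 for SRSF10, 0.0925 ± 0.0091 for PTBP3, 0.0964 ± 0.015 for ELAVL1 and 0.109 ± 0.025 for SRSF8. Long genes sat low on this scale although they held many counts. RBFOX2, which spans 289804 bases, had 6743 counts in all and a mean of 0.160 RPKM, whereas SRSF5, which spans 4893 bases, had 1537 counts. The spread across libraries was widest among the high genes for HNRNPA1, at 1.39 ± 0.63 RPKM.

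**Figure D1:**
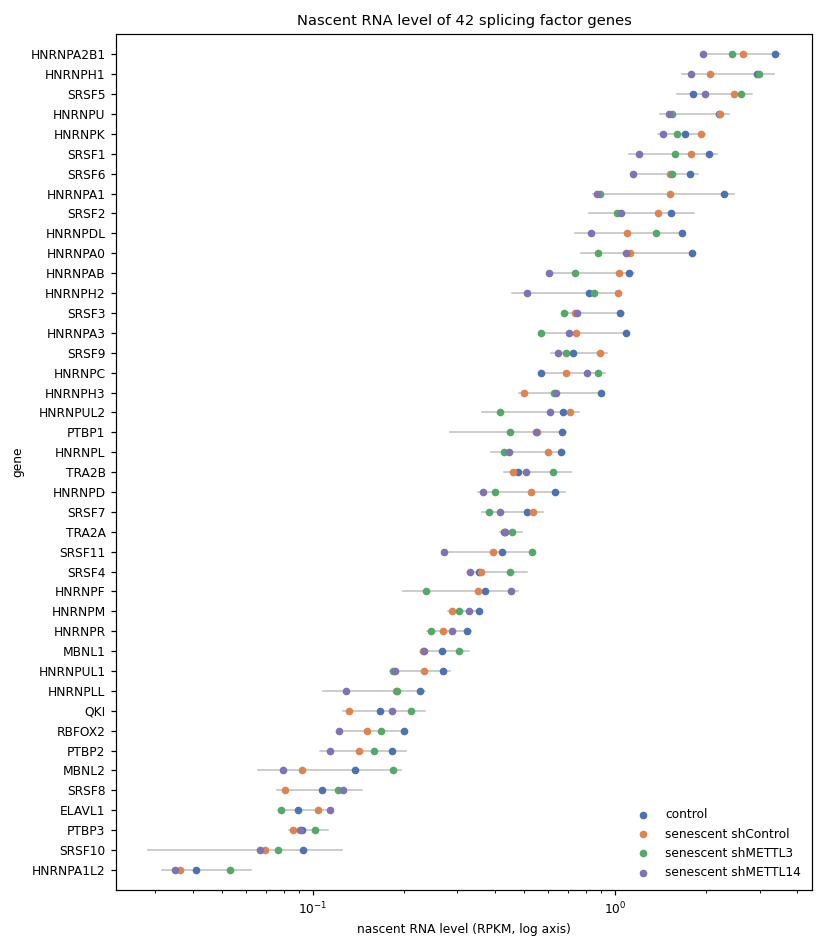
Nascent RNA level of the 42 genes that passed the filter, in RPKM on a log axis, ordered by the mean of 8 libraries. Points are the means of the 2 libraries of each group and grey lines run from the lowest to the highest library; HNRNPA2B1 stands at the top and HNRNPA1L2 at the bottom.

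The promoters of 5 genes are printed to set genes called lower in senescent than in control cells (HNRNPA0, HNRNPA2B1, HNRNPA3 and SRSF3) beside SRSF5, the gene called higher, whose call was lost in several alternative fits listed with its values. HNRNPA0, HNRNPA2B1, HNRNPA3 and SRSF3 also lost their calls with DESeq2 and in most fits that left out a control or shControl library. Shown are the 250 bases before each RefSeq start (build GRCh38.p14), 5′ to 3′ on the gene's strand. They lie at chr5:137754364-137754613 on the minus strand (HNRNPA0), chr7:26200747-26200996 on the minus strand (HNRNPA2B1), chr2:177212544-177212793 on the plus strand (HNRNPA3), chr6:36594112-36594361 on the plus strand (SRSF3) and chr14:69766892-69767141 on the plus strand (SRSF5). Capitals mark matches on either strand to the 8 motifs that were searched.
HNRNPA0: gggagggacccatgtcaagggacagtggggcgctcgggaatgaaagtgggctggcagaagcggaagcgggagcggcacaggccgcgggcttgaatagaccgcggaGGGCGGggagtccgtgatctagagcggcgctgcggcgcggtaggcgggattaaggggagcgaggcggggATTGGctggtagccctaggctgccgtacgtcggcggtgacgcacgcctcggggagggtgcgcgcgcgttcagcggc
HNRNPA2B1: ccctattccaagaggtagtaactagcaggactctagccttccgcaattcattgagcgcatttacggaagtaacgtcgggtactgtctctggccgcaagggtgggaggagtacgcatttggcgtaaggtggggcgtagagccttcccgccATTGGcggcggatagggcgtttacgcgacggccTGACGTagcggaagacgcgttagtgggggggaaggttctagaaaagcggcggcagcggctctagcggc
HNRNPA3: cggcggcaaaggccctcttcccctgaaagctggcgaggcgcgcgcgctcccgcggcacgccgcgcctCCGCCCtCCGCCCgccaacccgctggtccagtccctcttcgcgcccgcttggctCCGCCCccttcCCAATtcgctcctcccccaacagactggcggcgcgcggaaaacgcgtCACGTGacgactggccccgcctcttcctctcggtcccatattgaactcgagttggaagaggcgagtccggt
SRSF3: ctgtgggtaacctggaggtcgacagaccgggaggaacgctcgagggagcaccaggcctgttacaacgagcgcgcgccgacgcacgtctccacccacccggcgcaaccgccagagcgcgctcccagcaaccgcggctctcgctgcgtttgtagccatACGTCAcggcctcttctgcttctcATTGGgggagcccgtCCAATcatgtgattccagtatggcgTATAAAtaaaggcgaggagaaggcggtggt
SRSF5: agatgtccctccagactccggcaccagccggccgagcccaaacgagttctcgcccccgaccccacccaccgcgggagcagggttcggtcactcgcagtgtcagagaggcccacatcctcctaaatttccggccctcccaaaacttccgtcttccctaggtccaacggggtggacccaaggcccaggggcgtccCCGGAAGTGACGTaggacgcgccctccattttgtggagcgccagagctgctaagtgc

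Promoter entries were present for 40 of the 47 genes and for 36 of the 42 tested, and no matches overlapped each other in the 5 promoters shown. Only the first entry of each gene was searched, and some genes had more, up to 4 for HNRNPH1. The NF-Y box CCAAT was found in 16 of the 36 promoters (44.4%), beside 33% of all 27305 promoters of the table and 35% of those of the genes tested here. It was in 4 of 7 hnRNP A/B promoters, among them HNRNPA0, HNRNPA2B1 and HNRNPA3, and in 2 of 11 SR protein promoters, among them SRSF3. Of the genes lower in senescent cells whose promoters are not printed, HNRNPH3 had it, whereas HNRNPDL, HNRNPH1 and MBNL2 did not. HNRNPA1 and RBFOX2 had no promoter entry. The GC box, GGGCGG, was in 66.7% of the 36 promoters and in 42.3% of the whole table, but in 65.7% of promoters of the genes tested. The core of the cyclic AMP response element, TGACGT, was in 6 of 36 promoters (16.7%, beside 7.42% of the table and 10.6% of the genes tested), and the genes with it included HNRNPA2B1, SRSF3 and SRSF5. The E-box CACGTG was also in 6 of 36 (16.7%, beside 6.49% of the table and 8.85% of the genes tested), one of them HNRNPA3. An ETS site, written as CCGGAAG, was in 13.9% of the promoters, above the 8.82% of the table but below the 16.3% of the genes tested, and SRSF5 holds it. The share with a TATA box, searched as TATAAA, was 13.9% as well, beside 11.1% of the table and 5.64% of the genes tested, with SRSF3 among the genes. The NRF1 core GCGCATGC was in 2.78%, beside 2.81% of the table and 4.9% of the genes tested. The YY1 site AAGATGG was in 0 of the 36 windows, beside 3.77% of the table and 3.59% of the genes tested. These matches are letters in a window, and binding was not measured here.

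The first question was how transcription of these genes differs between senescent and control cells. Nascent RNA was lower in senescent shControl than in control cells for 10 of the 42 genes and higher for 1. Among all 12844 genes tested, 13.3% were called lower and 13.3% higher. The median log2 difference was −0.21 over the 42 genes and −0.03 over all genes. The lower genes were HNRNPH3, HNRNPA0, HNRNPDL, HNRNPA1, MBNL2, HNRNPA3, HNRNPH1, SRSF3, RBFOX2 and HNRNPA2B1, and the higher gene was SRSF5. These are bulk samples, in which fewer cells of a type and less RNA per cell cannot be told apart.

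The hnRNP A/B type proteins, which carry a pair of RNA recognition motifs and a glycine-rich tail, included 5 of these 10. HNRNPA1 (chr12:54674474-54680872, hg19, plus strand) encodes a repressor of exon inclusion. Its normalised read counts were 283 and 240.3 in control cells, 163 and 184 in shControl cells, 108 and 96.8 in shMETTL3 cells and 102 and 97.9 in shMETTL14 cells. Control libraries were highest, shControl libraries lay between, and both knockdowns were lowest, with no overlap between shControl and any other group. The senescent difference was −0.59 ± 0.15 (log2 fold change ± SE, adjusted p = 0.00435). HNRNPA0 had 93.9 and 96.7 normalised counts in control cells, and 56.7 and 62.3 in shControl cells. The 2 groups did not overlap, and the difference was −0.68 ± 0.21 (adjusted p = 0.0188). HNRNPDL, a paralog of HNRNPD, had 224 and 232 normalised counts in control cells, and 177 and 124 in shControl cells. The senescent libraries were both lower, although they differed from each other by more than the control libraries did (−0.60 ± 0.17, adjusted p = 0.00998). HNRNPA3 (−0.55) and HNRNPA2B1 (−0.35) were also called, the latter at adjusted p = 0.0487. HNRNPD (−0.26), HNRNPAB (−0.11) and HNRNPA1L2 (−0.17) were not. The median of the 8 genes was −0.45, and it was negative with every other scaling too. The 5 calls rested on the libraries compared: all 5 were lost without control replicate 1, HNRNPA1 alone was called with DESeq2 and without control replicate 2, HNRNPDL alone without shControl replicate 1, and HNRNPA1 and HNRNPA3 without shControl replicate 2.

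The hnRNP F/H proteins bind G-rich sequences. HNRNPH3 had 189.5 and 179 normalised counts in control cells and 106 and 99.1 in shControl cells. All senescent shControl libraries lay below control, and the fall was the largest of the 42 genes (−0.84 ± 0.17, adjusted p = 0.000295). HNRNPH1 had 494 and 512 normalised counts in control cells and 329 and 375 in shControl cells, without overlap (−0.51, adjusted p = 0.00803). HNRNPH2, the X-linked paralog, was at 89.4 and 86.2 in control cells and at 112 and 107 in shControl cells, which did not pass the test (0.32, adjusted p = 0.268). HNRNPF did not pass either (−0.07). GLA, whose start lies 120 bases from that of HNRNPH2 on the other strand, was higher (1.85, adjusted p = 5.12e-05).

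SR proteins gave 1 call in each direction among 13 tested, with a median of −0.10. SRSF5 had 139.9 and 176 normalised counts in control cells, and 219 and 213 in shControl cells. Senescent libraries were both higher (0.45 ± 0.16, adjusted p = 0.0373). With library size alone, without TMM, the SRSF5 difference was −0.049. Its call was also lost with DESeq2, with upper quartile scaling, with at least 10 counts required in every library, without control replicate 1 and without either shControl library. Offsets for GC content and length, described with METTL3 knockdown, put it at 0.34 (adjusted p = 0.0665). SRSF3, an SR protein that is also an adaptor for mRNA export, had 182 and 195 normalised counts in control cells and 126.5 and 140.2 in shControl cells, below control in both libraries (−0.50, adjusted p = 0.0198). The SRSF3 call was lost with DESeq2 and when either control or either shControl library was left out. The remaining 11 lay between −0.41 for SRSF10 and 0.30 for SRSF9.

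Among the other regulators, MBNL2, a muscleblind protein, had 426 and 419.7 normalised counts in control cells and 277 and 289 in shControl cells (−0.58, adjusted p = 0.00494), and RBFOX2, which binds GCAUG in introns, had 1025 and 1058 against 825 and 743 (−0.41, adjusted p = 0.0257). Both were lower without overlap. QKI, a STAR-family protein, lay at −0.35 (adjusted p = 0.0772), and PTBP1, PTBP2 and PTBP3 lay at −0.28, −0.36 and −0.10 with adjusted p of 0.368, 0.0924 and 0.699. HNRNPC, which coats nascent transcripts, lay at 0.28 (adjusted p = 0.125). With DESeq2, 4 genes were lower (HNRNPA1, HNRNPH1, HNRNPH3 and MBNL2), and SRSF5 was not called. With offsets for GC content and length RBFOX2 lay at −0.24 (adjusted p = 0.0850) and lost its call, the other 9 lower genes kept theirs, HNRNPC was called higher (0.33, adjusted p = 0.0154) and PTBP2 lower (−0.31, adjusted p = 0.0469). Leaving out control replicate 1 or 2 left 3 lower genes each time, and leaving out shControl replicate 1 or 2 left 2 and 5. HNRNPH3 was called in each of these 4 fits.

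**Figure D2:**
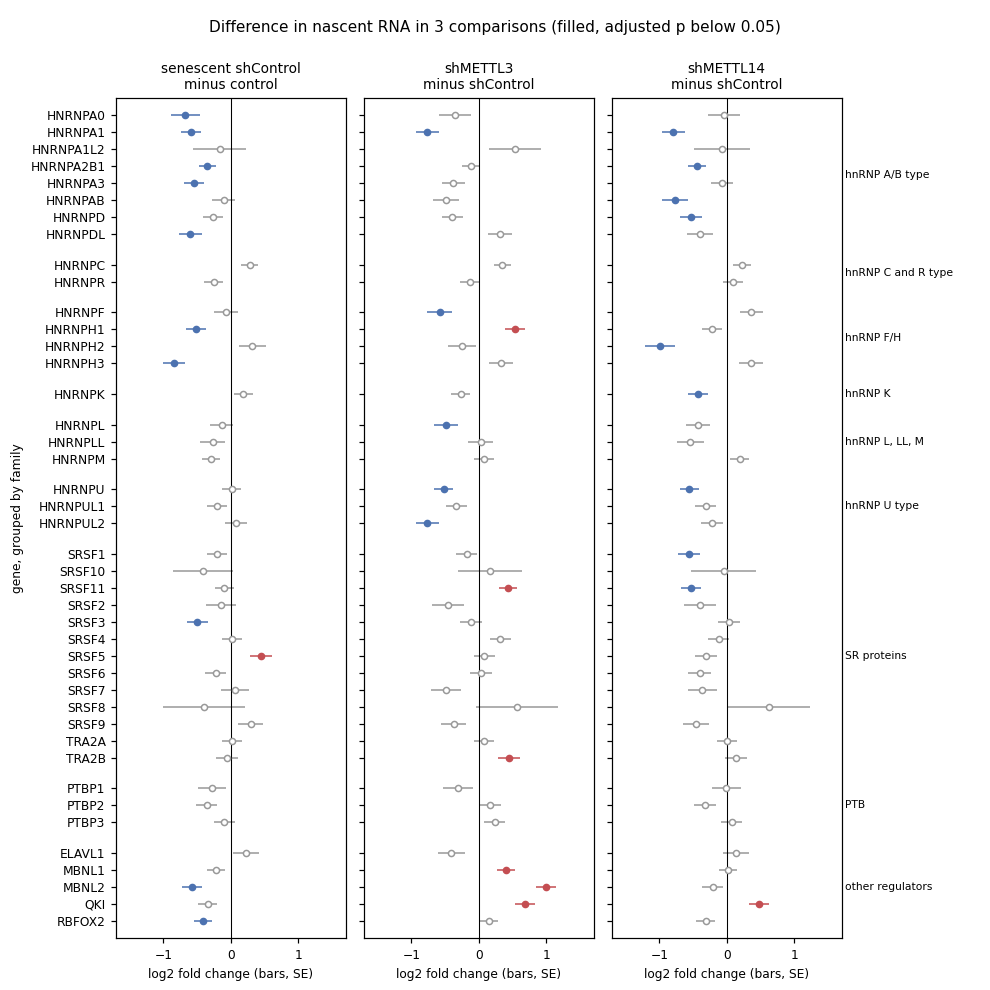
Log2 fold changes with their standard errors for the 42 genes in 3 comparisons, grouped by family. Filled points passed an adjusted p of 0.05 (blue lower, red higher): 10 lower and 1 higher in senescent shControl against control, 5 and 6 after METTL3 knockdown, and 9 and 1 after METTL14 knockdown.

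The second question was how knockdown of METTL3 changed these genes in senescent cells. Nascent RNA was higher in shMETTL3 than in shControl cells for 6 genes, beside 12.3% of all genes, and lower for 5, beside 11.2% of all genes. The median was −0.04 over the 42 genes and −0.03 over all genes. MBNL2, QKI, HNRNPH1, TRA2B, SRSF11 and MBNL1 were higher. HNRNPUL2, HNRNPA1, HNRNPF, HNRNPU and HNRNPL were lower. The shControl libraries enter both this comparison and the one with control cells, so a gene low in shControl cells counts in both. Markers moved as well: CD68 (−0.84, adjusted p = 0.0401), 2 of 5 proliferation genes (median −1.35), 3 of 6 senescence genes (median −0.98) and 2 of 9 fibroblast markers were lower, and 1 fibroblast marker and 1 senescence gene were higher. Their part in these results was not tested.

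MBNL2 (chr13:97874550-98046374, hg19, plus strand) rose most. It had 526 and 603 normalised counts in shMETTL3 cells, above the 277 and 289 of shControl cells and the 426 and 419.7 of control cells. The difference from shControl was 1.00 ± 0.15 (adjusted p = 1.84e-05), a fold of 2.00. QKI (chr6:163835675-163999628, hg19, plus strand) had 404 and 368 normalised counts in shControl cells and 549 and 690.3 in shMETTL3 cells (0.68 ± 0.14, adjusted p = 0.000888). MBNL1, the main muscleblind protein of most tissues, had 811 and 821 in shControl cells and 990.1 and 1162 in shMETTL3 cells (0.40, adjusted p = 0.0310). For all 3 genes both knockdown libraries lay above both shControl libraries, and replicate 2 was the higher. HNRNPH1 had 329 and 375 normalised counts in shControl cells and 450.4 and 569.7 in shMETTL3 cells, close to the 494 and 512 of control cells (0.54 ± 0.14, adjusted p = 0.00769). TRA2B, an SR-like activator that promotes inclusion of exons with purine-rich enhancers, had 203 and 184 in shControl cells and 225 and 302 in shMETTL3 cells (0.45 ± 0.16, adjusted p = 0.0432). Its knockdown libraries both exceeded shControl, replicate 1 by little. SRSF11 lay at 319 and 349 normalised counts in shControl cells and at 447 and 455 in shMETTL3 cells, where replicates were close (0.43, adjusted p = 0.0246).

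The hnRNP U proteins bind chromatin as well as RNA, and 2 of the 3 were lower. HNRNPUL2 had 199.8 and 174 normalised counts in shControl cells and 124 and 95.9 in shMETTL3 cells (−0.76 ± 0.17, adjusted p = 0.00172). HNRNPU had 541 and 589.9 against 357 and 429 (−0.52 ± 0.14, adjusted p = 0.00729). HNRNPUL1 was at −0.33 (adjusted p = 0.128). The median of the 3 genes was −0.52 with TMM and 0.10 with library size alone, where the median of all genes was 0.58. HNRNPA1 fell by 0.76 ± 0.17 on the log2 scale (adjusted p = 0.00151), the only call among 8 hnRNP A/B genes, whose median was −0.36 and turned to 0.25 with library size alone. CBX5, whose start lies 559 bases from that of HNRNPA1 on the other strand, was lower by a like amount (−0.73, adjusted p = 0.000893). HNRNPF had 135 and 159 normalised counts in shControl cells and 115 and 82.6 in shMETTL3 cells (−0.58 ± 0.18, adjusted p = 0.0230), and HNRNPL, which binds CA repeats, was also lower (−0.49, adjusted p = 0.0467). With library size alone HNRNPF and HNRNPU lay at 0.026 and 0.10.

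GC content and gene length moved with these values. Across 39 of the 42 genes, those averaging 50 counts or more, the shMETTL3 difference had a Pearson correlation of −0.51 with the GC content of the gene span and of 0.55 with log10 length, and over 6291 genes of the series these were −0.33 and 0.37. The difference between the 2 shMETTL3 libraries themselves correlated with GC content at −0.66 across the 39 genes and at −0.59 across all. The genes share libraries, so this describes 4 libraries and is given without a test. PTBP1, at 61% GC the most GC-rich of the 42, had 164 normalised counts in replicate 1 and 76 in replicate 2. With offsets for GC content and length, an alternative chosen after seeing the data, HNRNPH1, MBNL2 and TRA2B stayed higher and HNRNPA1, HNRNPU and HNRNPUL2 stayed lower. MBNL2 then lay at 0.69 (adjusted p = 2.49e-05), QKI at 0.27 (adjusted p = 0.0737), SRSF11 at 0.25 (adjusted p = 0.112) and MBNL1 at −0.05 (adjusted p = 0.810). Among the lower genes HNRNPF then lay at −0.42 (adjusted p = 0.0605) and HNRNPL at −0.14 (adjusted p = 0.572), while HNRNPA3 (−0.43), HNRNPD (−0.47) and HNRNPK (−0.33) were called lower in their place. Leaving out shMETTL3 replicate 2 left MBNL2 and QKI as the higher genes and HNRNPA1, HNRNPU and HNRNPUL2 among the lower ones, and leaving out replicate 1 gave 8 lower genes. Without shControl replicate 1, the higher genes were again MBNL2 and QKI, and without shControl replicate 2 they were HNRNPH1, MBNL2 and QKI, with HNRNPA1 and HNRNPUL2 lower. With DESeq2, HNRNPH1, MBNL1, MBNL2 and QKI were higher and HNRNPA1, HNRNPU and HNRNPUL2 lower, so TRA2B, SRSF11, HNRNPF and HNRNPL lost their calls. TRA2B also lost its call with upper quartile scaling and when only the compared groups were fitted.

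**Figure D3:**
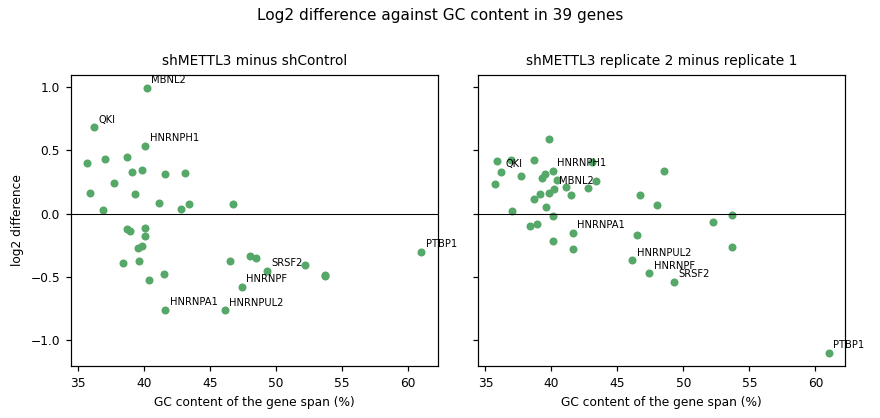
Log2 differences of 39 genes against the GC content of the gene span in percent, for shMETTL3 minus shControl (left) and for shMETTL3 replicate 2 minus replicate 1 (right). Both panels slope down, with Pearson correlations of −0.51 and −0.66, and PTBP1 at 61% GC is the lowest point on the right.

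The third question was how knockdown of METTL14 changed the same genes. Nascent RNA was lower in shMETTL14 than in shControl cells for 9 genes, beside 12% of all genes, and higher for 1, beside 9.15% of all genes. The median was −0.22 over the 42 genes, while that of all genes was at 0 to 2 decimals. HNRNPH2, HNRNPA1, HNRNPAB, SRSF1, HNRNPU, SRSF11, HNRNPD, HNRNPA2B1 and HNRNPK were lower and QKI was higher. In the same comparison 7 of 9 fibroblast markers (median −1.07) and 4 of 5 proliferation genes (median −2.02) were lower. Of 6 senescence genes 3 were lower and 1 higher (median −0.48). The part of these markers in the results was not tested.

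HNRNPH2 fell most among the called genes. It had 112 and 107 normalised counts in shControl cells and 49.0 and 61.1 in shMETTL14 cells, below every other library (−0.99 ± 0.22, adjusted p = 0.00170). Of the hnRNP A/B genes 4 of 8 were lower: HNRNPA1 (−0.79 ± 0.17, adjusted p = 0.00120), HNRNPAB, HNRNPD (−0.53) and HNRNPA2B1 (−0.44). HNRNPAB had 108 and 138 normalised counts in shControl cells and 72 and 72.7 in shMETTL14 cells (−0.77 ± 0.19, adjusted p = 0.00515), without overlap. HNRNPA2B1, which has been studied as a reader of m6A, had 520.2 and 509.7 in shControl cells and 382 and 377 in shMETTL14 cells, with replicates close in both groups. The median of the 8 genes was −0.42, and −0.07 with library size alone, where that of all genes was 0.35. CBX3, head to head with HNRNPA2B1 at 911 bases, was also lower (−0.72, adjusted p = 0.0292), whereas CBX5 beside HNRNPA1 (−0.19, adjusted p = 0.404) and GLA beside HNRNPH2 (−0.34, adjusted p = 0.418) were not called here. LRRC40, 4 bases from SRSF11, was not called after METTL3 knockdown (0.24) or METTL14 knockdown (0.15). ENOPH1 beside HNRNPDL and DYNLL1 beside SRSF9 had no call in senescence or after either knockdown.

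SRSF1, the archetypal SR protein, had 206 and 204 normalised counts in shControl cells and 149 and 127 in shMETTL14 cells, lower in both (−0.57 ± 0.16, adjusted p = 0.0118). SRSF11 lay at 234 and 227 in shMETTL14 cells, below its 319 and 349 in shControl cells (−0.54, adjusted p = 0.00883). The 13 SR genes had a median of −0.31, which turned to 0.04 with library size alone. HNRNPU (−0.56, adjusted p = 0.00512) and HNRNPK, a poly(C)-binding KH protein (−0.43, adjusted p = 0.0308), were lower. QKI had 545.7 and 529 normalised counts in shMETTL14 cells, above the 404 and 368 of shControl cells (0.48 ± 0.14, adjusted p = 0.0187). MBNL2 was at 203 and 286, with replicate 2 inside the shControl range (−0.21, adjusted p = 0.375). With DESeq2, 6 of the 9 lower genes were called and QKI was not. With the offsets for GC content and length, the 9 lower genes and QKI kept their calls. HNRNPL (−0.57, adjusted p = 0.00652), SRSF9 (−0.56, adjusted p = 0.0194) and SRSF6 (−0.41, adjusted p = 0.0426) were then lower too. HNRNPH3 (0.43, adjusted p = 0.0447) and HNRNPC (0.34, adjusted p = 0.0137) were then higher. Without shControl replicate 1 or 2, 5 and 2 lower genes were left, HNRNPA1 and HNRNPH2 in both, and QKI lost its call each time. Without shMETTL14 replicate 1 or 2, 6 of the 9 were left each time, and QKI lost its call without replicate 1. Leaving out either shMETTL3 library, which is not part of this comparison but enters the estimate of spread, gave 14 lower genes.

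The knockdowns were also compared directly, which tests whether they differ. Nascent RNA was lower in shMETTL14 than in shMETTL3 cells for 11 genes, beside 18.7% of all genes, and higher for 3, beside 16.5% of all genes. Of 9 fibroblast markers 5 were lower and 1 higher (median −0.78), and of 6 senescence genes 4 were higher and 1 lower (median 0.76). The part of these markers in the results was not tested. MBNL2 was lower by 1.21 ± 0.15 on the log2 scale (−1.21, adjusted p = 6.31e-07), with 203 and 286 normalised counts after METTL14 knockdown against 526 and 603 after METTL3 knockdown. SRSF11 was lower too (−0.97 ± 0.14, adjusted p = 6.22e-06). Its libraries lay on either side of shControl, at 447 and 455 after METTL3 knockdown and 234 and 227 after METTL14 knockdown. HNRNPF differed the other way (0.94 ± 0.18, adjusted p = 0.000157), with 199 and 179 normalised counts in shMETTL14 cells against 115 and 82.6 in shMETTL3 cells, as did HNRNPUL2 (0.55 ± 0.17, adjusted p = 0.0148) and ELAVL1, which encodes the mRNA stabiliser HuR (0.54, adjusted p = 0.0319). HNRNPH1, HNRNPH2, HNRNPDL, HNRNPLL, PTBP2, RBFOX2, SRSF4, SRSF6 and MBNL1 were the other lower genes. HNRNPA1, low after both knockdowns, differed between them by −0.03 ± 0.18 (adjusted p = 0.912). MBNL2, SRSF11, HNRNPH1 and HNRNPF kept their calls with DESeq2, with GC content and length offsets, and when each of the 4 libraries was left out. HNRNPUL2 and ELAVL1 lost their calls with DESeq2, with library size alone, without shMETTL3 replicate 2 and without either shMETTL14 library. They also lost them with the offsets, at 0.35 (adjusted p = 0.0793) and 0.22 (adjusted p = 0.378), where HNRNPF was 1 of 4 higher genes. The count of lower genes was 4 without shMETTL14 replicate 1, 5 without shMETTL3 replicate 2 and 6 with DESeq2. With the offsets MBNL1 lay at 0.23 (adjusted p = 0.0823), against −0.38 without them, and RBFOX2 (0.025, from −0.47), PTBP2 (0.016, from −0.49) and HNRNPLL (−0.22, from −0.57) lost their calls too, with adjusted p of 0.888, 0.941 and 0.332.

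**Figure D4:**
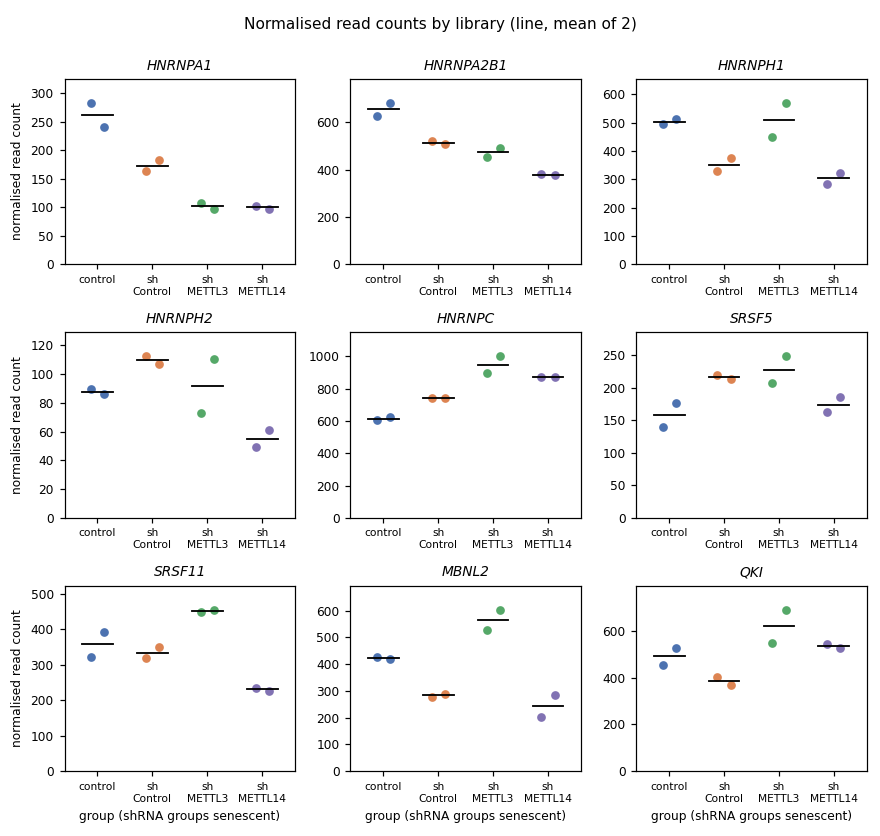
Normalised read counts of 9 genes in each of the 8 libraries; points are libraries and black lines are means of 2. HNRNPA1 steps down from control to both knockdowns, MBNL2 and SRSF11 are higher after METTL3 than after METTL14 knockdown, and HNRNPC is lowest in control cells.

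Set against control cells, knocked-down senescent cells differed in more of these genes. In shMETTL3 cells 17 genes were lower than in control cells, beside 20.1% of all genes, and 4 were higher, beside 20.1%. In shMETTL14 cells 21 were lower, beside 20.5%, and 1 was higher, beside 19.7%. The medians were −0.25 and −0.48, and those of all genes were −0.05 and 0.00. In each comparison 7 of 9 fibroblast markers were lower and 1 higher (medians −1.32 and −2.07). All 5 proliferation genes were lower (medians −2.44 and −3.83), and 5 of 6 senescence genes were higher. The part of these markers was not tested in either comparison. HNRNPA1 was lowest in both (−1.36 ± 0.16, adjusted p = 1.05e-07, and −1.39 ± 0.16, adjusted p = 9.04e-08), a level of 0.391 and 0.382 times control. HNRNPA0 followed in shMETTL3 cells (−1.02 ± 0.22, adjusted p = 0.000390) and HNRNPDL in shMETTL14 cells (−0.998 ± 0.18, adjusted p = 4.85e-05). In these comparisons 6 and 7 of the 8 hnRNP A/B genes were lower, with medians of −0.62 and −0.79 that stayed negative with every other scaling. HNRNPC moved the other way. Its normalised counts were 604 and 624 in control cells, 745 and 745 in shControl cells, 896 and 1001 in shMETTL3 cells and 872 and 869.8 in shMETTL14 cells, so control libraries were the lowest (0.63 ± 0.13, adjusted p = 0.000346, and 0.50 ± 0.13, adjusted p = 0.00296). SRSF5 was higher than control in shMETTL3 cells (0.53 ± 0.16, adjusted p = 0.00820). MBNL2 was higher than control in shMETTL3 cells (0.42) and lower in shMETTL14 cells (−0.79). Its call in shMETTL3 cells was lost with DESeq2, with upper quartile scaling, without either control library, without shMETTL3 replicate 2 and with the offsets for GC content and length (0.25, adjusted p = 0.0610). Leaving out control replicate 1 or 2 kept fewer of the 17 lower genes in shMETTL3 cells. The genes lower in both of these fits were HNRNPA0, HNRNPA1, HNRNPA3, HNRNPD, HNRNPF, HNRNPL, HNRNPUL2 and SRSF3. Without control replicate 1, HNRNPC alone stayed higher in shMETTL3 cells and lost its call in shMETTL14 cells. Without shMETTL3 replicate 2, HNRNPC was likewise the only higher gene in shMETTL3 cells.

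Some genes stayed without a call in the comparisons of senescence and of each knockdown with shControl. These 18 included TRA2A, whose normalised counts were 202 to 239 in all 8 libraries, HNRNPM at 223 to 286, HNRNPR at 169.96 to 236 and PTBP3 at 173 to 233. HNRNPLL, HNRNPUL1, PTBP1, PTBP2, ELAVL1, SRSF2, SRSF4, SRSF6, SRSF7, SRSF9 and HNRNPC had between 522 and 6323 counts in all and also had no call. With the offsets for GC content and length, HNRNPC and PTBP2 were called in senescence, and HNRNPC, SRSF6 and SRSF9 after METTL14 knockdown. HNRNPA1L2, SRSF10 and SRSF8 had 157, 180 and 68 counts in all, and at this depth their standard errors of 0.39 or more on the log2 scale left a change of that size undetectable. SRSF10 had 8.21 normalised counts in shMETTL3 replicate 1 and 36.1 in replicate 2.

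Other genes of the splicing machinery were counted in 8 lists with 117 genes in the series, of which 105 were tested. Of these, 3 were lower and 5 higher in senescent shControl than in control cells, beside 13.3% each of all genes. After METTL3 knockdown 12 were lower and 11 higher, beside 11.2% and 12.3%, and after METTL14 knockdown 8 were lower and 4 higher, beside 12% and 9.15%. The medians were 0.04, −0.05 and 0.02. Of 9 kinases and import factors of SR proteins, SRPK1, which phosphorylates SR proteins in the cytoplasm, was the largest riser in senescent cells (1.29, adjusted p = 4.75e-08), from 251 and 224 raw counts in control cells to 435 and 456 in shControl cells. SRPK2 (0.55, adjusted p = 0.00963) and DYRK1A (0.39, adjusted p = 0.0461) were higher and CLK3 was lower after METTL3 knockdown, and DYRK1A was higher (0.62, adjusted p = 0.00203) and TNPO3, the importer of SR proteins, lower (−0.50, adjusted p = 0.0331) after METTL14 knockdown.

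Among core spliceosome genes, the U2 genes SF3B6 (1.26, adjusted p = 0.00606) and SF3B4 (0.81, adjusted p = 0.0269) and SYF2 of the Prp19 complex (0.85, adjusted p = 0.0473) were higher in senescent shControl than in control cells, and SNRPA, a U1 protein, was lower (−1.23, adjusted p = 0.021). After METTL3 knockdown, of 13 genes of the U4/U6.U5 tri-snRNP, 5 were lower, beside 11.2% of all genes, led by SART1 (−1.01, adjusted p = 0.0127) and the helicase gene SNRNP200 (−0.75, adjusted p = 0.000624), with a list median of −0.36 that was −0.03 over all genes. After METTL14 knockdown SNRNP200 (−0.52, adjusted p = 0.0143) and PRPF8 (−0.40, adjusted p = 0.0491) were lower. Among 16 U2 and branch-site genes, SF3B4 (−0.94, adjusted p = 0.0151) and PUF60 (−0.86, adjusted p = 0.00625) were lower and U2AF1 higher (0.76, adjusted p = 0.00540) after METTL3 knockdown. Of 18 SR-related genes, SREK1 (0.74, adjusted p = 0.00258), ARGLU1 (0.61, adjusted p = 0.00392) and SCAF8 were higher after METTL3 knockdown, whereas BCLAF1 (−0.80, adjusted p = 0.000424) and SREK1 were lower and RNPS1 higher (0.84, adjusted p = 0.00282) after METTL14 knockdown. In the Prp19 complex, PRPF19 was higher after METTL14 knockdown (0.72, adjusted p = 0.0304). Of 24 other RNA-binding regulators, KHDRBS1 (−0.41, adjusted p = 0.0370) and SFPQ (−0.38, adjusted p = 0.0386) were lower in senescent cells. PCBP1 (−1.25, adjusted p = 5.55e-05) and TARDBP (−0.64, adjusted p = 0.0238) were 2 of 3 lower genes of that list after METTL3 knockdown, the other being NONO, and CELF1 (0.61, adjusted p = 0.0015), PSPC1 (0.44, adjusted p = 0.0185), RBM5 and MATR3 were higher. RBM25 (−0.46, adjusted p = 0.0302) was 1 of 2 lower genes of that list after METTL14 knockdown, and CELF1 (0.49, adjusted p = 0.0101) was higher. KHDRBS3, of the lineage-restricted list, was higher in senescent cells (1.09, adjusted p = 0.000512). Whether the GC trend between the shMETTL3 libraries bears on these lists too was not tested.

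**Figure D5:**
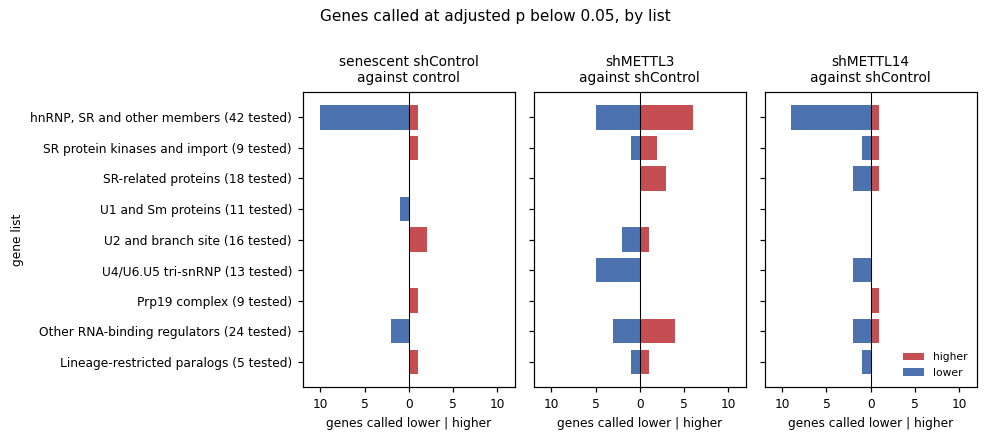
Number of genes called lower (blue, to the left) and higher (red, to the right) at an adjusted p below 0.05 in 3 comparisons, for the 42 genes described here and for 8 further lists of the splicing machinery. The upper bar holds 10 lower genes in senescent cells, and the tri-snRNP list holds 5 lower genes after METTL3 knockdown.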

How the data were processed

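The data are 8 fastGRO-seq libraries, 2 for each of 4 groups. Reads were aligned to hg19 by the authors, with STAR named in their processing notes, and the deposited values are raw read counts over whole genes made with HOMER. By the study's methods, alignment files were scaled by Drosophila spike-in RNA for signal tracks made with deepTools, and expression was tested with HOMER RPKM and DESeq2; the file header gives raw counts. The gene length comes from the same file. Counts of all 8 libraries were normalised by TMM, filtered with filterByExpr (minimum count 10) and fitted by group with edgeR 4.0.16 (quasi-likelihood) in R 4.3.3. Genes with a Benjamini-Hochberg adjusted p below 0.05 over the 12844 tested were called. Normalised counts are scaled to the mean effective library size. DESeq2 1.42.0 and other scalings, filters and left-out libraries were alternatives, with GC content (lowess span 0.3) known for 99.7% of genes. The fit was tested on simulated data. TMM takes most genes as unchanged, and spike-in reads of the study were not analysed here. Full statistics are given for the 4 largest called rises and falls with a mean of at least 50 counts, or 2 in comparisons with control cells or between knockdowns; wider lists by their 2 largest. HNRNPA2B1, HNRNPC, SRSF11, MBNL1 and other values beside these, and the printed promoters, were chosen after values were seen. The genes and lists were chosen with earlier results of these data known.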

Additional observations from a re-analysis of the deposited data

How the results depend on the processing

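The comparisons are named here as senescent shControl against control (S), shMETTL3 against shControl (K3), shMETTL14 against shControl (K14), shMETTL14 against shMETTL3 (D), shMETTL3 against control (C3) and shMETTL14 against control (C14), and pairs of numbers count higher and lower genes among the 42. As reported they were 1 and 10 (S), 6 and 5 (K3), 1 and 9 (K14), 3 and 11 (D), 4 and 17 (C3) and 1 and 21 (C14). With DESeq2 they were 0 and 4 (S), 4 and 3 (K3), 0 and 6 (K14), 1 and 6 (D), 2 and 11 (C3) and 1 and 16 (C14). With library size alone the median of all genes moved to −0.53 (S), 0.58 (K3) and 0.35 (K14), and the counts were 0 and 31 (S), 21 and 0 (K3), 5 and 1 (K14), 1 and 16 (D), 7 and 7 (C3) and 0 and 22 (C14); SRSF5 in S turned to −0.049, HNRNPF in K3 to 0.026 and HNRNPU in K3 to 0.10. GC content and length offsets gave 3 higher genes in K3, 3 in K14 and 2 in C14. At least 10 counts in every library gave 0 higher genes in S, upper quartile scaling 0 in S and 2 in C3, and fits of only the groups compared 2 higher in S, 14 lower in K14 and 5 lower in D. Protein-coding rows alone and the removal of ribosomal RNA rows each gave 7 higher in C3.

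Leaving out 1 library gave 0 to 1 higher and 2 to 12 lower genes in S, 2 to 8 and 2 to 8 in K3, 0 to 1 and 2 to 14 in K14, 1 to 4 and 4 to 15 in D, 1 to 6 and 11 to 18 in C3, and 0 to 1 and 15 to 23 in C14; a lone library left in a group is assumed to vary like the others. Same-numbered libraries of 2 groups deviated together with correlations of −0.06 to 0.26, so the numbers were not taken as pairs; with the replicate block the counts were 1 and 10 (S), 7 and 5 (K3), 1 and 10 (K14), 3 and 12 (D), 5 and 17 (C3) and 1 and 22 (C14). The cause of these moves was not tested. With 2 libraries a group and about 68 counts for the rarest gene tested, small changes of low genes were not detectable at this depth.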
